A study of Mus musculus with 6 samples.

Results

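The KEGG term Cell cycle is set out here in livers of mice treated with 9/13-HODEs and in Ctrl livers. Members were the genes of the authors' table whose pathway column holds the term named exactly Cell cycle, without the 3 Gadd45 genes (Gadd45a, Gadd45b and Gadd45g), which left 120 of 55401 gene models. The term holds Trp53, Cdkn1a and Cdkn2a, whose mRNA is often read as a marker of senescence. The livers came from male C57BL/6 mice, 8 weeks old at the start, with 3 mice per group and 1 library per mouse. The 9/13-HODEs mice received 9-HODE and 13-HODE in equal parts, oxidized products of linoleic acid, at a combined 0.5 μg/g body weight by daily intraperitoneal injection for 9 days. The Ctrl mice received the solvent, PEG400 in water, on the same schedule. No allele was altered in either group, and each library is bulk liver, so fewer cells of a type and less RNA per cell cannot be told apart.

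Cells divide when cyclins bind and switch on cyclin-dependent kinases (CDKs), which release E2F factors from retinoblastoma proteins so that the genes of DNA replication are transcribed. Checkpoints hold this in place: the factor p53, made from Trp53, turns on Cdkn1a, whose product p21 blocks CDKs, and the spindle checkpoint holds back the anaphase-promoting complex until chromosomes are attached. Most hepatocytes of an adult liver rest outside the cycle and enter it again after tissue loss or injury.

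Promoter sequence is shown for some members only: Cdkn1a as a p53 target, 4 mitotic genes of low level and a pair of replication genes. The mitotic genes were picked because their windows hold both motifs named for them. Sequences are RefSeq's on GRCm38.p6, read from the 250 bases before a gene's start, and 95 of the 120 members had an entry by symbol. Each is written 5′ to 3′ on the gene's strand. The Cdkn1a stretch (chr17:29090910-29090969, plus strand) ends at base -10 counted from the upstream one of its RefSeq starts, which lies 2790 bases from the downstream one. Capitals mark 2 copies of ACATGT, which holds the CATG core of the element that p53 binds.
Cdkn1a: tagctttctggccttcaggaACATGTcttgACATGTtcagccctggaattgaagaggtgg
A pair of ACATGT copies starting 6 to 30 bases apart was held by 28 of the 27025 genes of the promoter table (0.104%), and Cdkn1a was the 1 member among them. This pair was searched after the stretch had been seen. In the mitotic genes, capitals mark TTTGAA, the letters of the cell cycle genes homology region (CHR), an element known from promoters of mitotic genes, and CCAAT, the box bound by NF-Y, each on either strand. The stretches lie at chr10:69352913-69353130 (minus strand) for Cdk1, the kinase that drives mitosis, and at chr9:70421560-70421731 (minus strand) for Ccnb2, one of its B-type cyclins. Those of Cdc20, an activator of the anaphase-promoting complex, and Espl1, separase, lie at chr4:118437344-118437406 (minus strand) and chr15:102296239-102296281 (plus strand).
Cdk1: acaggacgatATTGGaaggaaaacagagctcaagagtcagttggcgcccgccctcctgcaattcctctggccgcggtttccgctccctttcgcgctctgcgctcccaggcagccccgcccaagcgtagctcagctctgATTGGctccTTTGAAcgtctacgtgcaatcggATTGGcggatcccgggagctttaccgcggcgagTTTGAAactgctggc
Ccnb2: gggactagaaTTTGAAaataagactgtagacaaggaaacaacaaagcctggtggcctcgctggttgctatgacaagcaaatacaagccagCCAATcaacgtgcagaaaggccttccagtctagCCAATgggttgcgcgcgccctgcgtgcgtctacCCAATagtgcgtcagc
Cdc20: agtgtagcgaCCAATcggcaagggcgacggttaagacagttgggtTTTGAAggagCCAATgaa
Espl1: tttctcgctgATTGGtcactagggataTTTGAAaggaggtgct
CHR letters were found for 17 of the 95 members (17.9%) and 18.3% of all genes of the promoter table, CCAAT for 52 members (54.7%) and 37.5% of all genes, and both for 10 members (10.5%) and 6.45% of all genes. Other mitotic genes differed in this: the windows of Plk1, Ccnb1, Bub1, Bub1b and Ttk held CCAAT and no CHR letters. For Mcm5 (chr8:75109348-75109379, plus strand) and Mcm6 (chr1:128359733-128359827, minus strand), subunits of the replicative helicase, capitals mark TTTGGCGC or TTTCCCGC on either strand, letters that E2F factors bind.
Mcm5: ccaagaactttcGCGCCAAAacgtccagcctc
Mcm6: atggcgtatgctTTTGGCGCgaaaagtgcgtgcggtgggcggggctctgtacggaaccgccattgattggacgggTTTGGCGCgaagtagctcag
Either E2F motif was found for 12 members (12.6%) and for 1.51% of all genes. Other replication genes differed in this: the window of Mcm7 held such letters, and those of Mcm2, Mcm3 and Pcna did not. These matches describe the printed windows only.

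The levels of the members spanned from no count at all to 55.3 FPKM (fragments per kilobase of transcript at a common depth, a level per length), and many genes of mitosis were at or near 0. Over the 6 livers, 8 members had a mean of at least 10 FPKM: Ywhae, Skp1a, Anapc13, Pttg1, Ywhaz, Cdk4, Ywhab and Rbx1. A further 46 lay from 1 to under 10 FPKM and 38 from 0.1 to under 1 FPKM. The 28 below 0.1 FPKM were not tested: Ccne2, Plk1, Ccna2, Pkmyt1, Skp2, Dbf4, Atm, Cdkn2a, Bub1b, Rbl1, Cdc25b, Cdkn2b, Cdc7, E2f2, Tgfb2, Chek1, Cdc14a, Cdc6, Ccnb1, Espl1, Ttk, Smc1b, Bub1, Ccna1, Orc1, Wee2, Cdc25c and Ccnb3. The last 5 of these had 0 counts in all 6 libraries. The 6 members of highest level, which are ubiquitin ligase subunits, 14-3-3 adaptors, securin and Cdk4, took between 48.8% and 51.8% of the summed FPKM of the term in 9/13-HODEs livers and between 44.8% and 51.5% in Ctrl livers. All 120 members together took from 0.133% to 0.143% of the counts in 9/13-HODEs libraries and from 0.144% to 0.150% in Ctrl libraries.

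**Figure D1:**
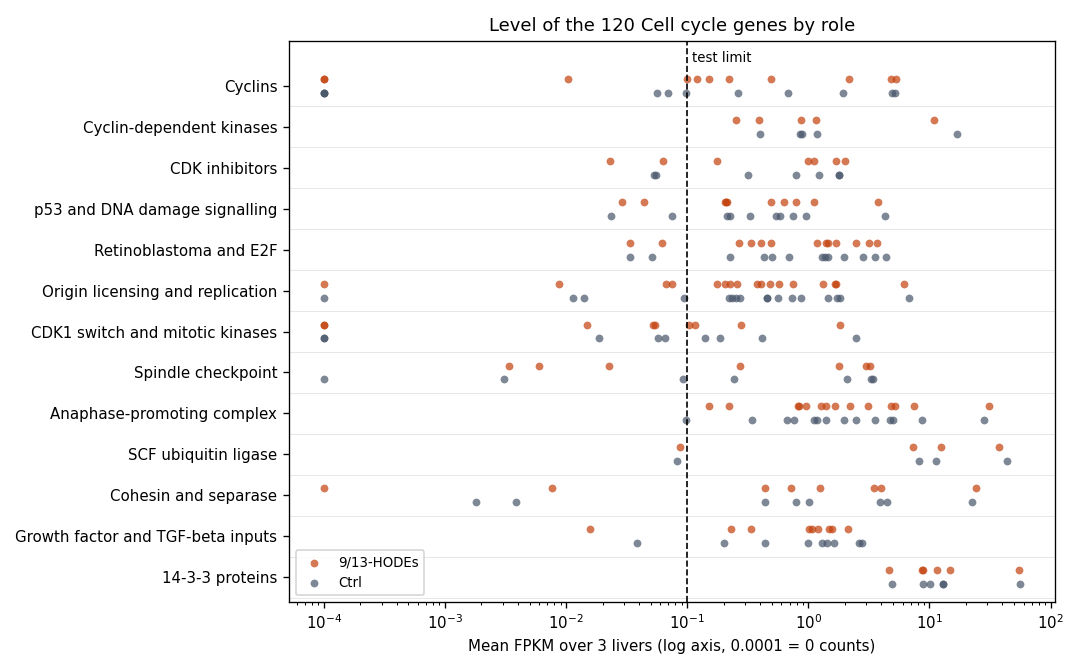
Mean FPKM over 3 livers (log axis) of each of the 120 members, 1 point per gene and group, by role, with 9/13-HODEs in orange above Ctrl in grey. The dashed line is the limit of 0.1 FPKM (mean over all 6 livers) for testing; 28 members lay below it, and all 14-3-3 proteins above it.

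Across the libraries, total counts lay between 71710457 and 78615288 in 9/13-HODEs and between 70300597 and 74018372 in Ctrl. Low counts lay mostly on 4, 8, 12 and 16 (53.2% of the values from 3 to 16, against 28.6% if spread evenly), so 1 fragment may be worth several counts and no counting interval is given. Hepatocyte markers summed to between 56801 and 67117 FPKM in 9/13-HODEs livers and to between 61108 and 67053 FPKM in Ctrl livers, with Alb the highest. For 3 of these 6 markers, Cps1, Cyp3a11 and Serpina1a, every 9/13-HODEs liver lay below every Ctrl liver in FPKM (log2 fold changes of -0.28, -0.27 and -0.25), as it did for 9.82% of all genes tested. Sums for other cell types overlapped too: 7 Kupffer cell and macrophage markers gave from 32.4 to 41.9 FPKM in 9/13-HODEs livers and from 29.4 to 39.6 FPKM in Ctrl livers. Of these 7, the FPKM groups stood apart for 1 in the lower direction, Adgre1 (log2 fold change -0.54), and for 1 in the higher direction, Timd4 (0.46). The 10 lymphocyte and leukocyte markers gave from 2.03 to 2.40 FPKM in 9/13-HODEs livers and from 1.08 to 2.45 FPKM in Ctrl livers. The 6 neutrophil markers, with Ngp and Camp at 0 in every library, gave from 2.56 to 10.4 FPKM in 9/13-HODEs livers and from 0.885 to 3.15 FPKM in Ctrl livers. The part of hepatocytes and of these other cells in the levels of the members was not tested.

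Of the 92 members tested, none passed the adjusted threshold between 9/13-HODEs and Ctrl livers, and 1 passed without adjustment, the CDK inhibitor Cdkn1a, which was lower in 9/13-HODEs livers. The counts were compared over all 14741 genes with a mean of at least 0.1 FPKM by the quasi-likelihood test of edgeR, adjusted after Benjamini and Hochberg, and log2 fold changes are 9/13-HODEs over Ctrl. An adjusted p under 0.05 was reached by 0 of 92 members and by 0.0204% of all genes tested, and the smallest adjusted p of a member was 0.649 by edgeR. An unadjusted p under 0.05 was reached by 1.09% of the members and 7.69% of all genes, with 0 members and 4.08% of all genes higher and 1 member and 3.61% of all genes lower in 9/13-HODEs livers. DESeq2 gave 0 members with an adjusted p under 0.05 (0.604% of all genes) and 2 without adjustment, Cdk2 and Myc (7.84% of all genes), and did not give Cdkn1a. Without 1 liver the unadjusted edgeR count ran from 0, without Ctrl replicate 2 (7.7% of all genes), to 3, without 9/13-HODEs replicate 1 (6.1% of all genes).

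The spread of the members' fold changes was small. The median log2 fold change was -0.08 over the 92 members and 0.00 over all genes, and its median size was 0.17 for members and 0.21 for all genes. A fold change of less than 0.25 in size was seen for 64 members (69.6%) and 55.9% of all genes. The values lay below 0 for 55 of 92 members (59.8%) and for 49.9% of all genes. Scaling moved this balance: with library totals in place of TMM factors the medians were -0.15 for members and -0.07 for all genes, and 32.3% of the genes with an unadjusted p under 0.05 were then higher in 9/13-HODEs livers, against 53.1% with TMM. With TPM scaling in limma the medians were -0.20 for members and -0.14 for all genes, and 19.7% of such genes were higher.

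**Figure D2:**
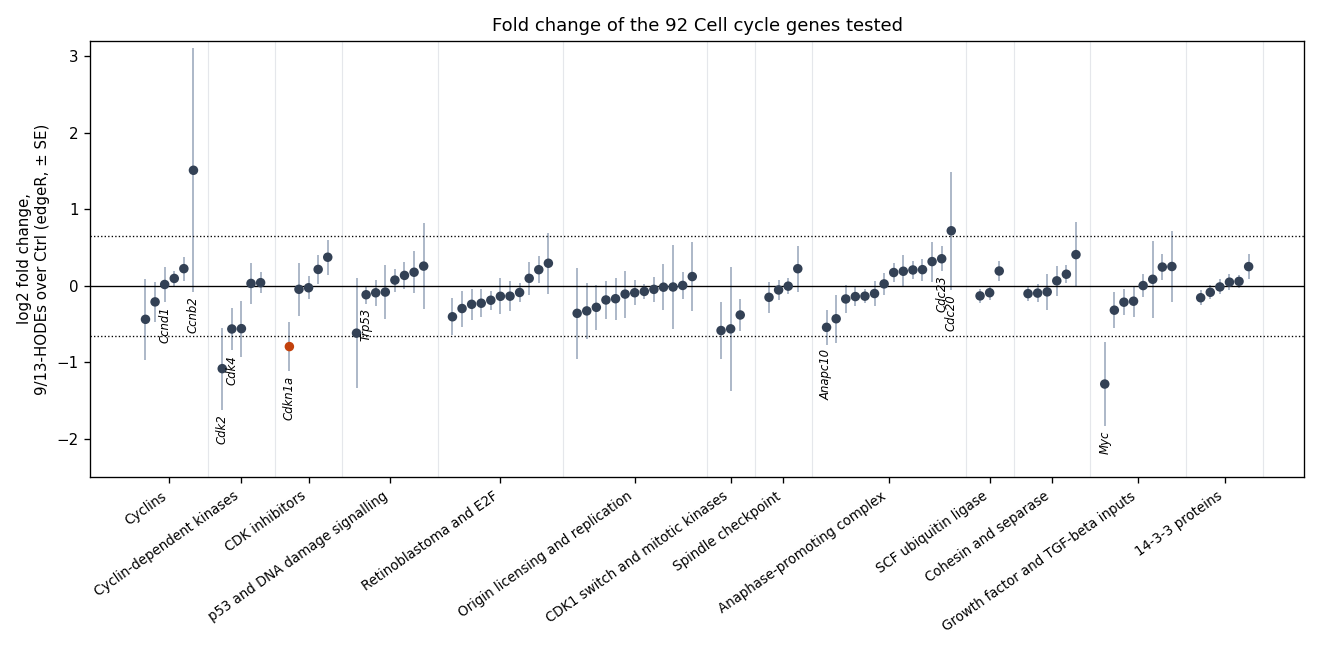
Log2 fold change, 9/13-HODEs over Ctrl, of the 92 members tested, with SE from edgeR as bars, ordered within each role. The orange point is Cdkn1a, the 1 member with an unadjusted p under 0.05, and dotted lines mark 0.65 and -0.65; most points lie near 0, and Ccnb2, with 1.51, has the widest bar.

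Trp53, the gene for p53 (chr11:69580359-69591873, plus strand), had 4.14, 3.94 and 3.30 FPKM in 9/13-HODEs livers, against 4.59, 4.04 and 4.24 FPKM in Ctrl livers. The groups overlapped, and 9/13-HODEs replicate 3 was the lowest of the 6. Its log2 fold change was -0.12 (SE 0.12, adjusted p = 0.818 by edgeR), with a 95% interval from -0.40 to 0.16, and an exact two-sided permutation test on FPKM gave p = 0.2. The processed pseudogene Trp53-ps, with a near-identical transcript, held 123 counts over the 6 libraries beside 8030 for Trp53.

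Cdkn1a (chr17:29090976-29100727, plus strand), the p53 target that encodes p21, had 0.231, 0.150 and 0.144 FPKM in 9/13-HODEs livers, against 0.276, 0.377 and 0.303 FPKM in Ctrl livers. Its counts were 65, 45 and 46 in 9/13-HODEs livers and 80, 105 and 89 in Ctrl livers. Every 9/13-HODEs liver thus lay below every Ctrl liver, at a level among the lower ones of the term. The mean was 0.175 ± 0.0483 FPKM in 9/13-HODEs livers and 0.318 ± 0.0520 FPKM in Ctrl livers (SD, n = 3 each), with a log2 fold change of -0.79 (SE 0.32, 95% interval from -1.56 to -0.03, unadjusted p = 0.0440 and adjusted p = 0.649 by edgeR). The exact two-sided permutation test on FPKM gave p = 0.1, the smallest that 3 against 3 livers allow. The unadjusted p was 0.0524 by DESeq2, and by edgeR it ran from 0.0268 without 9/13-HODEs replicate 1 to 0.144 without Ctrl replicate 2, being above 0.05 in 5 of the 6 cases with a liver left out, and the fold change ran from -1.03 to -0.62.

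Cdkn2a (chr4:89274471-89294653, minus strand), the locus of p16 and p19Arf, was close to the limit of detection. It had 0, 16 and 4 counts in 9/13-HODEs livers, against 16, 0 and 0 counts in Ctrl livers. Each group thus held livers with no count and livers with some, and the gene was not tested across genes. In FPKM its mean was 0.0631 in 9/13-HODEs livers and 0.0528 in Ctrl livers, and an exact permutation test of the difference of 0.0103 FPKM gave p = 1. Reads of the p16 and p19Arf transcripts are not separated in this table.

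**Figure D3:**
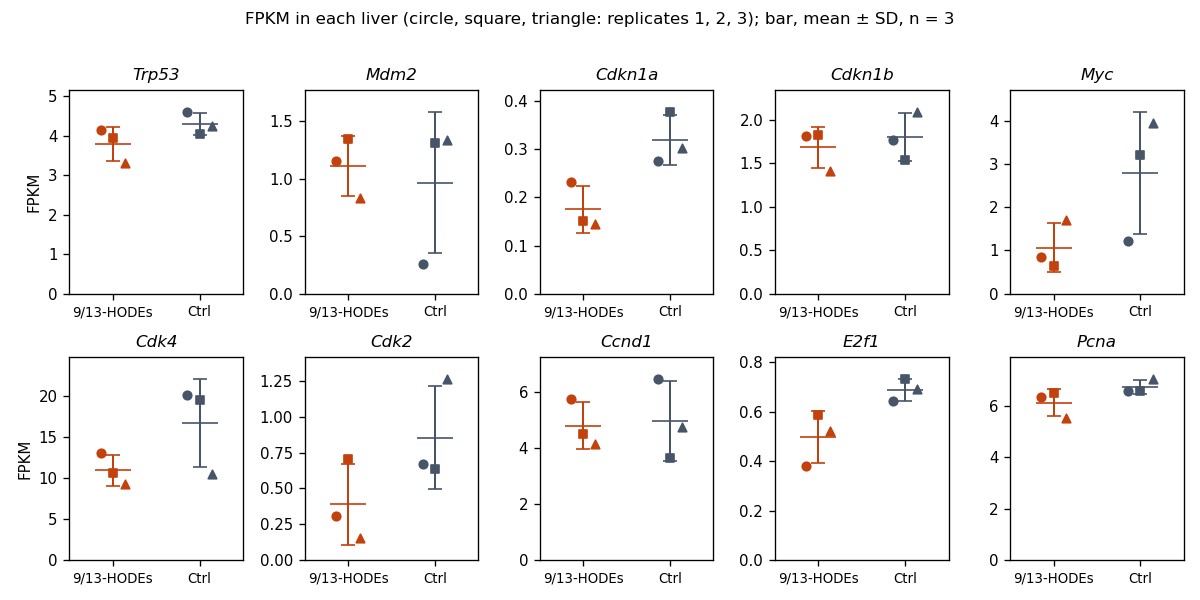
FPKM of 10 members in each liver, with 9/13-HODEs in orange and Ctrl in grey, as mean ± SD (n = 3) and a point per mouse. The groups stand apart for Cdkn1a, E2f1 and Pcna and overlap for the others, and 1 Ctrl liver is far below the other livers for Mdm2 (0.260 FPKM).

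Around p53, the other members of its branch did not pass the test. Mdm2, the ubiquitin ligase that degrades p53 and is itself a p53 target, had 1.15, 1.34 and 0.830 FPKM in 9/13-HODEs livers, against 0.260, 1.3 and 1.33 FPKM in Ctrl livers. Ctrl replicate 1 alone was low, and the log2 fold change of 0.26 (SE 0.56) became -0.19 without it. The damage kinase Atr gave 0.228, 0.215 and 0.194 FPKM in 9/13-HODEs livers, against 0.202, 0.217 and 0.214 FPKM in Ctrl livers. Of the 8 tested genes of p53 and DNA damage signalling, 4 had a fold change above 0 and 4 below it, with a median of 0.00 (0.14 without 9/13-HODEs replicate 3), and Atm and Chek1 were below the test limit.

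Genes that p53 is known to induce, outside the term, gave no common direction. Of 25 listed, 19 were tested, 10 with a positive and 9 with a negative fold change, a median of 0.01, and 0 with an adjusted p under 0.05 by edgeR. Without adjustment, Phlda3 (log2 fold change 0.82) and Sesn2 (0.62) were higher in 9/13-HODEs livers and Xpc (-0.49), a DNA repair gene, was lower, beside 4.08% of all genes tested higher and 3.61% lower. In FPKM the groups stood apart for 1 of the 19 in the higher and 4 in the lower direction, beside 5.28% and 9.82% of all genes. On counts scaled by TMM the numbers were 3 higher and 2 lower, beside 7.98% and 7.5% of all genes, so the balance depended on the scale. The members of that list with the highest level, Perp and Ei24, had log2 fold changes of 0.01 (SE 0.11) and -0.12 (SE 0.13). Perp encodes a desmosomal protein of epithelia.

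Among the other CDK inhibitors, Cdkn2c (p18) and Cdkn1b (p27) were the most abundant. Cdkn2c had 2.14, 2.37 and 1.5 FPKM in 9/13-HODEs livers, against 1.80, 1.66 and 1.93 FPKM in Ctrl livers. Cdkn1b had 1.81, 1.83 and 1.41 FPKM in 9/13-HODEs livers, against 1.76, 1.54 and 2.09 FPKM in Ctrl livers. Both overlapped between groups, with log2 fold changes of 0.21 (SE 0.19) and -0.03 (SE 0.15), and that of Cdkn1b lay at 0.06 without Ctrl replicate 3. Cdkn1a thus held a mean level under that of Cdkn2c, Cdkn1b, Cdkn2d and Cdkn1c in both groups. Cdkn2b, which encodes p15, was below the test limit.

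Of the CDKs, Cdk4 was by far the highest in FPKM. Cdk4 (chr10:127063534-127067920, plus strand), which pairs with D-type cyclins in G1, had 13.0, 10.6 and 9.22 FPKM in 9/13-HODEs livers, against 20.1, 19.6 and 10.5 FPKM in Ctrl livers. Only Ctrl replicate 3 fell within the range of the 9/13-HODEs livers. The log2 fold change was -0.56 (SE 0.28, 95% interval from -1.23 to 0.11, adjusted p = 0.677 by edgeR), and without Ctrl replicate 3 it was -0.83. The unadjusted p by edgeR was 0.0864 with all livers and 0.00172 without Ctrl replicate 3.

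Cdk7, the kinase that activates other CDKs and also acts in transcription, had 1.24, 1.44 and 0.794 FPKM in 9/13-HODEs livers, against 0.985, 0.998 and 1.56 FPKM in Ctrl livers. Cdk2, the partner of E-type cyclins in S phase entry, had 0.311, 0.705 and 0.153 FPKM in 9/13-HODEs livers, against 0.667, 0.632 and 1.27 FPKM in Ctrl livers. Its 9/13-HODEs replicate 2 lay above 2 of the Ctrl livers, so the groups overlapped. The log2 fold change of Cdk2 was -1.08 (SE 0.53, adjusted p = 0.677 by edgeR) and ran from -1.78 to -0.72 with a liver left out. Cdk1, whose promoter is printed above, had 0.177, 0.364 and 0.224 FPKM in 9/13-HODEs livers, against 0.257, 0.448 and 0.483 FPKM in Ctrl livers.

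Of the cyclins, Ccnd3, Ccnd1 and Ccnh had means above 1 FPKM over the 6 livers. The D-type Ccnd2 (0.242 FPKM) and the E-type Ccne1 (0.588 FPKM) lay lower, and the E-type Ccne2 (0.0988 FPKM) was below the test limit. Those of S phase and mitosis were scarce. Ccnd3 and Ccnd1, the D-type cyclins of highest level, averaged 5.25 ± 0.195 and 4.78 ± 0.835 FPKM in 9/13-HODEs livers and 5.16 ± 0.523 and 4.95 ± 1.43 FPKM in Ctrl livers (SD, n = 3 each). For Ccnd1 the livers had 5.72, 4.49 and 4.13 FPKM with 9/13-HODEs, against 6.47, 3.64 and 4.75 FPKM in Ctrl. Its log2 fold change of 0.02 (SE 0.22) lay below 0 with library totals (-0.06). Part of its transcript matched that of LTO1, which held 2390 counts beside 11245, in a search that took matches on either strand. Ccnb2, the B-type cyclin printed above, was listed at 0 counts in 9/13-HODEs replicate 2 and Ctrl replicate 2, and had 0.0904 and 0.364 FPKM in the other 9/13-HODEs livers, against 0.0866 and 0.0820 FPKM in the other Ctrl livers. Its log2 fold change of 1.51 (SE 1.59) rested on 9/13-HODEs replicate 3, without which it was -0.31. Ccnb1 and Ccna2 were below the test limit, and Ccna1 and Ccnb3, which are known from the germ line, had 0 counts.

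Myc (chr15:61985391-61990350, plus strand), the growth factor-induced transcription factor, had the lowest fold change of the members tested. It had 0.841, 0.65 and 1.71 FPKM in 9/13-HODEs livers, against 1.21, 3.21 and 3.94 FPKM in Ctrl livers. Ctrl replicate 1 lay below 9/13-HODEs replicate 3, so the groups overlapped, while 2 Ctrl livers lay above all others. The log2 fold change was -1.28 (SE 0.54, 95% interval from -2.58 to 0.02, unadjusted p = 0.0524 and adjusted p = 0.649 by edgeR), and with a liver left out it ran from -1.86 to -1.0, with an unadjusted p from 0.0133 to 0.155. Smad4, the shared partner of TGF-beta-activated Smads, had 2.00, 2.47 and 1.93 FPKM in 9/13-HODEs livers, against 2.59, 2.06 and 3.14 FPKM in Ctrl livers. Of the 8 tested genes of growth factor and TGF-beta input, 4 had a fold change above 0 and 4 below it.

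**Figure D4:**
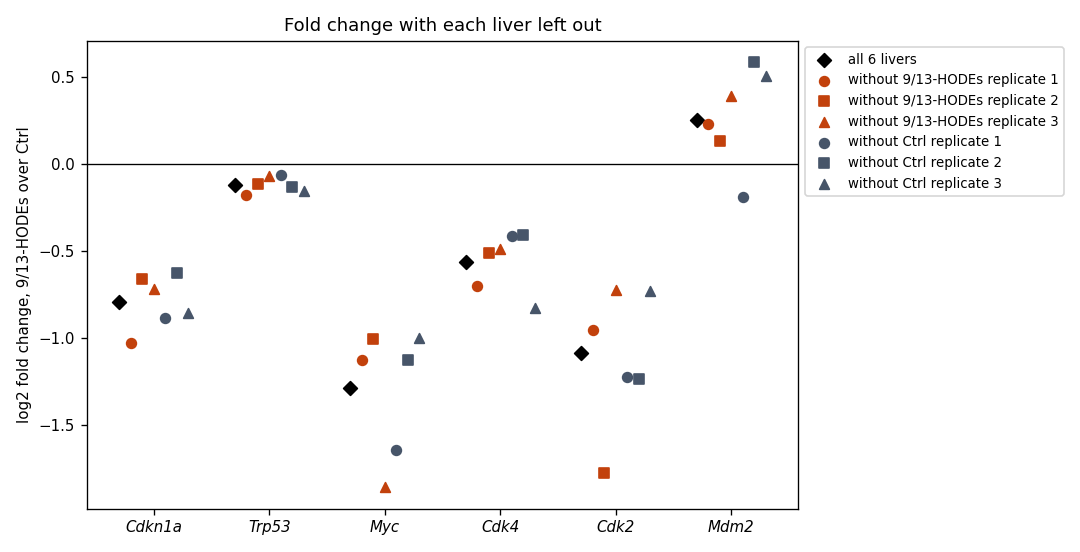
Log2 fold change by edgeR, 9/13-HODEs over Ctrl, of 6 members with all 6 livers (diamond) and with each liver left out in turn (orange for a 9/13-HODEs liver, grey for a Ctrl liver). Cdkn1a, Trp53, Myc, Cdk4 and Cdk2 stay below 0 in each case, and Mdm2 lies at -0.19 without Ctrl replicate 1.

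For 9 of the members tested, Cdkn1a included, every 9/13-HODEs liver had a lower FPKM than every Ctrl liver, and for none of those tested was it the reverse. That is 9.78% of the 92 tested, beside 9.82% of all genes tested in the lower direction and 5.28% in the higher one. They were Cdkn1a, E2f1, E2f4, Pcna, Ywhaq, Anapc2, Anapc10, Smc1a and Mad1l1, and they spread over 7 of the 13 roles. Among members below the test limit, the FPKM groups stood apart for Bub1b in the lower direction and for Pkmyt1 and Cdc7 in the higher one. On counts scaled by TMM to a common depth (CPM) the groups stood apart for 8 members in the lower direction (7.5% of all genes) and for 1, Cdc23, a subunit of the anaphase-promoting complex, in the higher direction (7.98% of all genes). Smc1a and Mad1l1 overlapped on that scale, and Skp1a stood apart.

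Of the retinoblastoma and E2F group, E2f1, an activator of replication genes, had 0.382, 0.587 and 0.521 FPKM in 9/13-HODEs livers, against 0.643, 0.732 and 0.691 FPKM in Ctrl livers. E2f4, the E2F that mostly represses in resting cells, had 3.69, 3.91 and 3.39 FPKM in 9/13-HODEs livers, against 4.18, 3.99 and 4.95 FPKM in Ctrl livers. E2f4 was thus the higher of the pair in every liver. The log2 fold changes were -0.40 (SE 0.24) and -0.19 (SE 0.12), and neither had an unadjusted p under 0.05 by edgeR. Hdac1, a histone deacetylase that retinoblastoma proteins recruit, had 3.15, 3.51 and 2.91 FPKM in 9/13-HODEs livers, against 3.90, 3.10 and 3.65 FPKM in Ctrl livers. Of the 11 tested members of this group, 3 had a fold change above 0 and 8 below it, with a median of -0.14.

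In origin licensing and replication, Pcna, the sliding clamp of DNA polymerase, was the highest. It had 6.32, 6.50 and 5.53 FPKM in 9/13-HODEs livers, against 6.58, 6.55 and 7.05 FPKM in Ctrl livers. The groups stood apart by little, and the log2 fold change was -0.07 (SE 0.10, 95% interval from -0.32 to 0.17 by edgeR). Orc5, a subunit of the origin recognition complex, had 1.96, 1.83 and 1.3 FPKM in 9/13-HODEs livers, against 2.01, 1.67 and 1.78 FPKM in Ctrl livers. The helicase genes printed above for their E2F letters were low: Mcm6 averaged 0.378 ± 0.0577 FPKM in 9/13-HODEs livers and 0.452 ± 0.123 FPKM in Ctrl livers, and Mcm5 0.177 ± 0.0505 FPKM in 9/13-HODEs livers and 0.235 ± 0.0800 FPKM in Ctrl livers (SD, n = 3 each). Of the 13 tested members, 2 had a fold change above 0 and 11 below it, with a median of -0.09 and fold changes from -0.36 to 0.12. None had an unadjusted p under 0.05 by edgeR.

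Of the 9 genes of the CDK1 switch and the mitotic kinases, 6 were below the test limit, Plk1 among them. Wee1, the kinase that holds CDK1 inactive, was the highest with 2.30, 1.74 and 1.43 FPKM in 9/13-HODEs livers, against 2.67, 1.99 and 2.79 FPKM in Ctrl livers. The phosphatase Cdc14b had 0.202, 0.598 and 0.0330 FPKM in 9/13-HODEs livers, against 0.458, 0.376 and 0.415 FPKM in Ctrl livers. Its 9/13-HODEs livers thus lay on both sides of the Ctrl range. The log2 fold change of Wee1 was -0.38 (SE 0.21), and with a liver left out it ran from -0.58, without 9/13-HODEs replicate 1 (unadjusted p = 0.0273 by edgeR), to -0.26. That of Cdc14b was -0.56 (SE 0.81), and it ran from -1.75, without 9/13-HODEs replicate 2 (unadjusted p = 0.0464 by edgeR), to -0.05, without 9/13-HODEs replicate 3.

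In the spindle checkpoint, Bub3 and Mad1l1, both of which also have roles outside mitosis, were well above the rest. Bub3 had 3.28, 3.33 and 3.11 FPKM in 9/13-HODEs livers, against 3.19, 3.51 and 3.49 FPKM in Ctrl livers. Mad1l1 had 3.11, 2.80 and 3.07 FPKM in 9/13-HODEs livers, against 3.32, 3.13 and 3.34 FPKM in Ctrl livers. Bub1, Bub1b and Ttk, the kinases of the checkpoint, were all below the test limit.

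The anaphase-promoting complex had all of its 14 members tested, 8 with a fold change above 0 and 6 below it, and a median of 0.10. That median turned to -0.06 without 9/13-HODEs replicate 3, and to -0.04 both at a mean FPKM of at least 1 and by limma on TPM. Anapc13, a small structural subunit, had 29.8, 31.9 and 31.1 FPKM in 9/13-HODEs livers, against 28.7, 30.0 and 25.3 FPKM in Ctrl livers. Anapc2, the cullin subunit, had 7.46, 7.82 and 7.14 FPKM in 9/13-HODEs livers, against 8.55, 7.95 and 9.31 FPKM in Ctrl livers. Subunits of 1 complex thus lay on both sides of 0, with log2 fold changes of 0.21 (SE 0.12) for Anapc13 and -0.14 (SE 0.09) for Anapc2. Anapc10, which helps to hold substrates, had 0.228, 0.204 and 0.234 FPKM in 9/13-HODEs livers, against 0.374, 0.303 and 0.342 FPKM in Ctrl livers, and its log2 fold change was -0.54 (SE 0.23, unadjusted p = 0.0508 by edgeR). Cdc23 had 0.865, 0.879 and 0.711 FPKM in 9/13-HODEs livers, against 0.761, 0.645 and 0.596 FPKM in Ctrl livers, and its log2 fold change was 0.35 (SE 0.16, unadjusted p = 0.0690 by edgeR). The activator Cdc20 averaged 0.151 ± 0.128 FPKM in 9/13-HODEs livers and 0.0977 ± 0.0483 FPKM in Ctrl livers (SD, n = 3 each).

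Of the SCF ubiquitin ligase, Skp1a, the adaptor subunit, was the second highest member of the term. It had 35.8, 41.1 and 36.7 FPKM in 9/13-HODEs livers, against 46.1, 40.6 and 43.5 FPKM in Ctrl livers. Rbx1, the RING subunit, had 12.5, 12.6 and 12.4 FPKM in 9/13-HODEs livers, against 12.6, 11.8 and 9.84 FPKM in Ctrl livers. Neither passed the test, and Skp2, the F-box protein that targets p27, was below the test limit.

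Cohesin and its release held one of the highest members of the term and some of the lowest. Pttg1, securin, which inhibits separase, had 23.7, 24.8 and 23.7 FPKM in 9/13-HODEs livers, against 24.1, 23.6 and 20.2 FPKM in Ctrl livers. Espl1, separase itself, had 0, 18 and 0 counts in 9/13-HODEs livers, against 0, 0 and 4 counts in Ctrl livers. The inhibitor was thus abundant while its target was at the limit of detection. Smc1a, a cohesin core subunit, had 3.37, 3.51 and 3.48 FPKM in 9/13-HODEs livers, against 3.74, 3.68 and 4.25 FPKM in Ctrl livers, and Rad21, the cleaved subunit, averaged 3.96 ± 0.368 FPKM in 9/13-HODEs livers and 4.43 ± 0.599 FPKM in Ctrl livers (SD, n = 3 each).

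The 14-3-3 proteins, which bind phosphorylated partners such as CDC25 phosphatases and act in many pathways, were all above the test limit. Ywhae had 54.8, 55.1 and 55.1 FPKM in 9/13-HODEs livers, against 57.5, 57.5 and 52.0 FPKM in Ctrl livers. Ywhaz had 14.3, 13.5 and 16.4 FPKM in 9/13-HODEs livers, against 12.2, 14.7 and 12.1 FPKM in Ctrl livers. Ywhaq had 8.48, 9.27 and 8.34 FPKM in 9/13-HODEs livers, against 9.64, 9.39 and 11.4 FPKM in Ctrl livers. All 6 listed under this role had fold changes between -0.16 and 0.25 on the log2 scale, and none passed the test. The 14-3-3 gene Sfn was listed with p53 and DNA damage signalling instead, and had a log2 fold change of 0.18 (SE 0.27). Some genes had transcript stretches near identical to those of members, in a search that took matches on either strand. Copies were thus not told apart from genes that overlap a member on the opposite strand. Reads could be split in such cases: Cdk5rap2 held 1568 counts over the 6 libraries beside 14171 for Ywhaq, Exosc9 1581 beside 197 for Ccna2, and Ints8 2232 beside 172 for Ccne2.

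Most genes of proliferation outside the term were likewise low. Of 28 listed, 18 lay below the test limit, Mki67 and Top2a among them, and of the 10 tested 4 had a fold change above 0 and 6 below it, with none at an unadjusted p under 0.05 by edgeR. The highest, Gmnn and Tk1, averaged 5.86 and 4.40 FPKM over the 6 livers and had log2 fold changes of -0.18 (SE 0.22) and -0.02 (SE 0.23). Rrm2, Stmn1 and Tyms followed at 1.77, 1.21 and 1.09 FPKM. Mki67 had from 0 to 0.0257 FPKM in 9/13-HODEs livers and from 0 to 0.00461 FPKM in Ctrl livers, where 0 stands for libraries without a count.

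The study's RNA sequencing methods call genes by a log2 fold change alone, and its statistics section sets a general p threshold of 0.05. A log2 ratio of mean FPKM (each with 0.1 added) past 0.65 in either direction was reached by 3 of the members tested. These were Cdk2 (-0.97) and Myc (-1.31) lower and Ccnb2 (0.69) higher. That is 3.26% of the members tested, beside 10.4% of all genes tested (4.61% higher and 5.79% lower). Among the tested members, Cdkn1a and Cdk4, each with a ratio of -0.61, lay next inside the line. Below the test limit, Bub1b had a ratio of -0.6501, just past the line, and Plk1 one of -0.63, inside it. The study's methods state no added constant, and the 0.1 added here shrinks the ratios of low genes. By edgeR's fold change, Cdkn1a lay past the line at -0.79 and Cdk4 inside it at -0.56. With an unadjusted edgeR p under 0.05 required as well, a combination that the methods do not spell out, 0 of 92 members and 3.11% of all genes were called. With edgeR's fold change in place of the ratio, Cdkn1a would pass both thresholds. Cdk2, Ccnb2 and Cdc23 are described here because of their values.

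Many of the extreme values of the members lay in a pair of libraries. By FPKM, 9/13-HODEs replicate 3 was the lowest of the 6 libraries for 48 of the 92 members (52.2%), beside 31.3% of all genes tested, and Ctrl replicate 3 was the highest for 37 (40.2%), beside 30.1%. On TMM-scaled CPM the shares were smaller, with 31 members (33.7%) lowest in 9/13-HODEs replicate 3 beside 20.2% of all genes, and 25 (27.2%) highest in Ctrl replicate 3 beside 20.2%. Without 9/13-HODEs replicate 3 the median log2 fold change of the members was -0.05, and without Ctrl replicate 3 it was -0.04. The part of these livers in the members' fold changes was otherwise not tested.

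**Figure D5:**
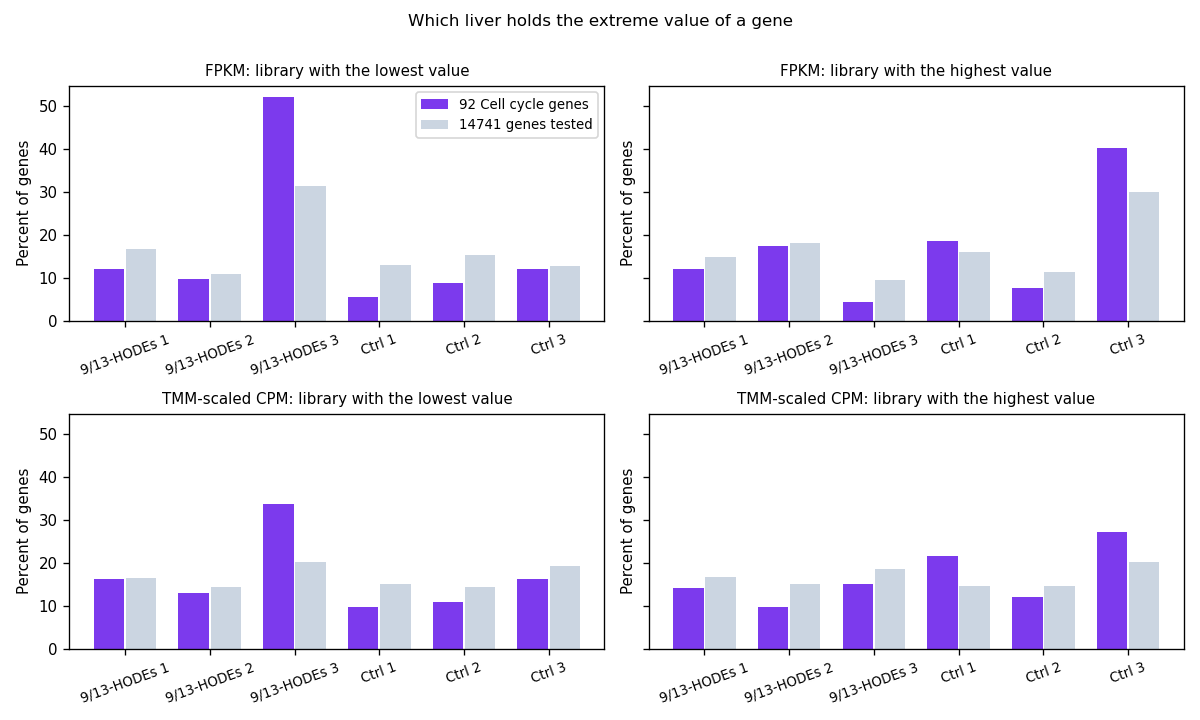
Percent of genes for which each library holds the lowest (left) or highest (right) of the 6 values, by FPKM (top) and by TMM-scaled CPM (bottom), for the 92 members tested (purple) and all 14741 genes tested (grey). The tallest bar, 52.2%, is that of 9/13-HODEs replicate 3 as the lowest library by FPKM.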

How the data were processed

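Liver RNA of 3 mice treated with 9/13-HODEs and 3 Ctrl mice was sequenced, with 1 library per mouse. Per gene model, the authors deposited raw counts in whole numbers and FPKM, in which length and depth are divided out, with 0.0001 listed where the count is 0. The submitters' processing notes name, in no stated order, HISAT2 2.0.4 and StringTie 1.3.4d, besides cutadapt 1.9, UMI-tools, edgeR and DESeq2. Whether the counts are of reads or unique molecules, and the genome build, are not given in the sources used here. All 120 member IDs and starts equal those of GENCODE M21 (GRCm38), so coordinates are given on that build.

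A mean of 0.1 FPKM or more was required for a test by edgeR 4.0.16 in R 4.3.3 (TMM, quasi-likelihood test, Benjamini-Hochberg adjustment, threshold 0.05). The FPKM of single genes was compared with exact permutation tests. Fold changes use 9/13-HODEs over Ctrl. Intervals at 95% come from edgeR's SE and degrees of freedom. DESeq2 1.42.0, limma 3.58.1 on log2 values with 0.1 or 1 added (FPKM or TPM), other scalings, other filters, robust dispersion, a replicate block and the omission of each liver were the alternatives. Counts divided by 4 and the comparison on TMM-scaled CPM were added after seeing the data. BLAST+ 2.17.0 was used to find near-identical transcript stretches, with matches on either strand taken.

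Text names Trp53, Cdkn1a and Cdkn2a, members with an unadjusted p under 0.05 or with no overlap between groups in FPKM, and the 2 members of highest level in each role. Other members named were chosen after their values were seen. Of the lists outside the term, the 2 genes of highest level and those with an unadjusted p under 0.05 are named. Other genes of those lists, Mki67 and Cyp3a11 among them, are named outside this rule, with their values known. The members, roles and lists were chosen with earlier results of these data known.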

Additional observations from a re-analysis of the deposited data

How the results depend on the processing

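The adjusted count of members was 0 in every alternative run. The unadjusted count, 1 by edgeR, was 2 by DESeq2, 3 with library totals, 2 without a filter, 0 at a mean FPKM of at least 1, 2 by limma with 0.1 or with 1 added, 4 by limma on TPM, 2 with counts divided by 4, and from 0 to 3 with a liver left out. The share of all genes with such a p was 7.69% by edgeR, 7.84% by DESeq2 and 7.74% with library totals. It was 5.50% without a filter, 9.43% at a mean FPKM of at least 1 and 9.39% by limma on TPM. With a liver left out it ran from 5.9% to 7.7%. The count past the ratio of 0.65 with an unadjusted p under 0.05, 0, was 2 by DESeq2, 1 with library totals, without a filter, by limma with 0.1 or 1 added and with counts divided by 4, 3 by limma on TPM, and from 0 to 2 with a liver left out. The ratio alone, 3 of the members tested, gave 1 with 1 added, 5 on TPM and from 2 to 8 with a liver left out. The share of all genes past the ratio was computed in the main setting only, 10.4% alone and 3.11% with that p. The median of the members was -0.15 with library totals and -0.20 on TPM. The same replicate numbers did not pair the livers (correlations of deviations of 0.01, -0.03 and -0.04): with a replicate block the counts were 1 without adjustment (Myc) and 1 past the ratio with that p, and Cdkn1a was at -0.81 (unadjusted p = 0.0898 by edgeR). Cdkn1a was at -0.79 by DESeq2 and from -1.03 to -0.62 with a liver left out. Of the single genes named, these turned direction. Bub3 was at 0.0023 with upper-quartile scaling. With library totals, limma with 0.1 added, limma with 1 added and limma on TPM, Ccnd1 was at -0.060, -0.024, -0.024 and -0.11, Cdk7 at -0.043, -0.036, -0.018 and -0.12, and Ywhae at -0.027, -0.015, -0.015 and -0.098. Ccnd3 was at -0.053 on TPM. With a liver left out, Bub3 ran from -0.044 to 0.053, Ccnb2 from -0.31 to 2.09, Ccnd1 from -0.14 to 0.27, Cdk7 from -0.12 to 0.24, Cdkn1b from -0.099 to 0.062, Mad1l1 from -0.12 to 0.024, Mdm2 from -0.19 to 0.59, Orc5 from -0.16 to 0.080 and Ywhae from -0.026 to 0.10. Role medians turned too: the anaphase-promoting complex, 0.10, was at -0.037 at a mean FPKM of at least 1, -0.043 on TPM and -0.062 without 9/13-HODEs replicate 3, and the growth factor and TGF-beta inputs, -0.10, were at 0.028 without that liver. With a liver left out the medians also turned for cyclins, CDK inhibitors, 14-3-3 proteins, cohesin and separase, the spindle checkpoint, and p53 and DNA damage signalling, all within 0.06 of 0 in the whole data. In all, 770 of 876 alternative values were scored as unchanged. For single genes that meant the same direction and side of the threshold. Medians had to stay within the SD of the Ctrl livers, even where their sign turned. Counts could shift a little, such as from 3 to 4 or to 2. The cause of these shifts was not tested.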

Other observations

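Markers of other liver cells were compared in the same fit, since dividing cells of the liver need not be hepatocytes. None of these genes had an adjusted p under 0.05 by edgeR. Without adjustment, Lyve1, an endothelial gene, was higher in 9/13-HODEs livers (log2 fold change 1.06, SE 0.32), and the urea cycle gene Cps1 (-0.28, SE 0.12) and the erythroid heme gene Alas2 (-0.38, SE 0.14) were lower. Of all genes tested, 4.08% were higher and 3.61% lower at that threshold, and 49.9% had a fold change below 0. Of 6 endothelial markers 5 had a fold change above 0 and 1 below it, of 7 Kupffer cell and macrophage markers 5 and 2, of 6 stellate cell and fibroblast markers 6 and 0, and of 5 cholangiocyte markers 4 and 1. Of 10 lymphocyte and leukocyte markers 4 were tested, all with a fold change above 0, and 6 lay below the test limit. Of 6 neutrophil markers 2 were tested, S100a8 (1.46, SE 0.77) and S100a9 (1.63, SE 0.69). The most abundant other markers had log2 fold changes as follows: Alb 0.05 and Apoa1 0.01 for hepatocytes, Clec4f 0.16 and Cd5l 0.14 for Kupffer cells, Clec4g 0.05 and Stab2 0.40 for endothelium, Dcn 0.13 and Col3a1 0.34 for stellate cells and fibroblasts, Spp1 0.04 and Krt19 0.87 (SE 0.54) for cholangiocytes, Cd79a 0.71 (SE 0.39) and Nkg7 0.43 (SE 0.58) for lymphocytes, and Hba-a1 -0.08 for erythroid cells. Of 6 hepatocyte markers 3 had a fold change above 0 and 3 below it, and of 5 tested erythroid markers 2 and 3.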
